A study of Mus musculus with 10 samples.

Results

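The natriuretic peptide system of the heart was described from 6 genes: the peptide genes Nppa and Nppb, the receptor genes Npr1, Npr2 and Npr3, and Corin, which encodes a processing enzyme. These 6 were chosen by name out of the 56748 gene identifiers in the count tables, matched to symbols by GENCODE, by a rule that uses no measured value, although earlier results of these data were known when they were chosen. RNA was sequenced from whole hearts of wild-type male C57BL/6 mice, which were bought at 8 weeks of age and assigned at random. In the training group (n = 5 hearts) each mouse had run on a small-animal treadmill for 8 weeks. The speed was 15 m/min for 120 min per day, on 5 days a week. The sedentary group (n = 5 hearts) held mice of like age that were not trained. Each heart gave 1 directional library of poly-A RNA, with both atria, the atrial appendages and the ventricles homogenized together.

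Atrial natriuretic peptide, made from Nppa, and brain natriuretic peptide, made from Nppb, are hormones that heart muscle cells release when the wall is stretched. Nppa is strongly expressed in the atria of the adult heart and weakly in its ventricles, and both genes are widely used as markers of load and of the fetal gene program. The receptor NPR-A, encoded by Npr1, and NPR-B, encoded by Npr2, are membrane guanylyl cyclases that make cyclic GMP when a peptide binds, whereas NPR-C, encoded by Npr3, takes the peptides up and clears them. Corin is a membrane-bound serine protease of heart muscle cells that cuts the Nppa precursor into its active form.

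Nppa and Nppb lie next to each other on chromosome 4 of GRCm39, on the plus strand. GENCODE places Nppb (ENSMUSG00000029019) at 148069859 to 148071662 and Nppa (ENSMUSG00000041616) at 148085091 to 148086583, with 13428 bases between them. Their promoters are shown because both genes are read as targets of the same cardiac transcription factors, whose own expression is given further on. The sequences are those of RefSeq for mouse, 250 bases before and 50 bases from the RefSeq start, and each matched GRCm39 at 1 place without a mismatch. Capitals mark matches, on either strand, to GATAA (the core bound by GATA factors), AAGTG (the core bound by NKX2-5), GGTGTGA (T-box factors), CATTCC (TEAD factors), TATAAA (the TATA box) and the CArG box of SRF. The Nppa window is chr4:148084929-148085228 and the Nppb window is chr4:148070107-148070406, plus strand, and matches on the minus strand appear as the reverse complement.
Nppa: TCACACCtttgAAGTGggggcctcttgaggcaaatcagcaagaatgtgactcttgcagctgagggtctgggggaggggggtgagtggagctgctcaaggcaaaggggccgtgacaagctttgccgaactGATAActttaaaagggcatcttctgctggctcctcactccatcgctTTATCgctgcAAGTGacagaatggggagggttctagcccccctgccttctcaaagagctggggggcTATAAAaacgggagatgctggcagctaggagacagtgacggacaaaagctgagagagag
Nppb: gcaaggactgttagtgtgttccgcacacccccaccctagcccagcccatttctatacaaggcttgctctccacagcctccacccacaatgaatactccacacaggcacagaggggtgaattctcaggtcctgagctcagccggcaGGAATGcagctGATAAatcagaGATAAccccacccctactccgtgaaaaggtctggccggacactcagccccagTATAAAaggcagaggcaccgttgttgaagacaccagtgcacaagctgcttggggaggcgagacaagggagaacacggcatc
Both windows held 2 matches to GATAA and 1 to TATAAA. In the Nppa window GATAA began at positions −121 and −75 from the RefSeq start, and AAGTG at −239 and −65. In the Nppb window GATAA began at −94 and −83, and CATTCC at −105. GGTGTGA was found in the Nppa window alone. The CArG box, searched only as CC, then 6 bases of A or T, then GG, was found in neither. Sites that depart from this exact pattern were not searched, so the absence of a match does not show the absence of an SRF site. Over all 32851 RefSeq promoters of this length, 25.4% held GATAA, 46.4% AAGTG, 3.98% GGTGTGA, 14.7% CATTCC, 13.6% TATAAA and 1.63% a CArG box. No match to any of the 6 motifs was found in the windows of Npr1, Npr2, Npr3 or Corin. The starts differ between annotations: that of RefSeq lay 88 bases downstream of the GENCODE start for Nppa and 498 bases downstream for Nppb.

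Reads on genes ranged from 29461697 to 35945417 in the training hearts and from 35196993 to 39431030 in the sedentary hearts, and all 6 genes passed the filter on low counts. The smallest count of any member in any library was 991 reads (Npr1). Among 15454 tested genes, 1084 differed between the groups at an FDR below 0.1 (quasi-likelihood test of edgeR, Benjamini-Hochberg adjustment), which is 7.01%. That number moved with single hearts: it was 512 without training heart 4 or without sedentary heart 3, 540 without training heart 3, 611 without sedentary heart 2, 671 without sedentary heart 4 and between 736 and 1490 without any other heart (1490 without sedentary heart 1). Of the 1084, 425 (2.75% of tested genes) were higher in the training hearts and 659 (4.26%) were lower; with library totals alone in place of the composition correction, 1029 were higher and 339 lower. The values of the groups did not overlap in 782 genes (5.06%). Markers of the tissue were present in every library: the summed level of 6 general cardiomyocyte markers lay between 20109 and 23392 CPM (counts scaled to a common library size of a fixed number of reads), that of 5 ventricular markers between 7320 and 9721 CPM, and that of 10 atrial markers between 1386 and 3965 CPM.

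On a scale that accounts for transcript length (TPM, as deposited), the genes of the system spanned a wide range of levels in the same order in both groups for the 4 highest. Nppa was the highest, with 4827 ± 816 TPM (SD, n = 5) in the training hearts and 3334 ± 1446 TPM in the sedentary hearts. Averaged over a group, this placed it at rank 25 of all genes in the training and rank 31 in the sedentary hearts. Nppb followed at 355 ± 83.9 and 334 ± 47.9 TPM, and Corin at 76.6 ± 4.58 and 66.6 ± 8.51 TPM. The receptors were far lower. Npr2 lay between 22.3 and 25.6 TPM in the training and between 22.4 and 26.1 TPM in the sedentary hearts. Npr3 and Npr1 came last and shared a range: Npr3 lay between 5.96 and 15.9 TPM over the 10 hearts and Npr1 between 8.07 and 11.1 TPM. Every other neighbouring pair in this order was separated in all hearts.

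**Figure D1:**
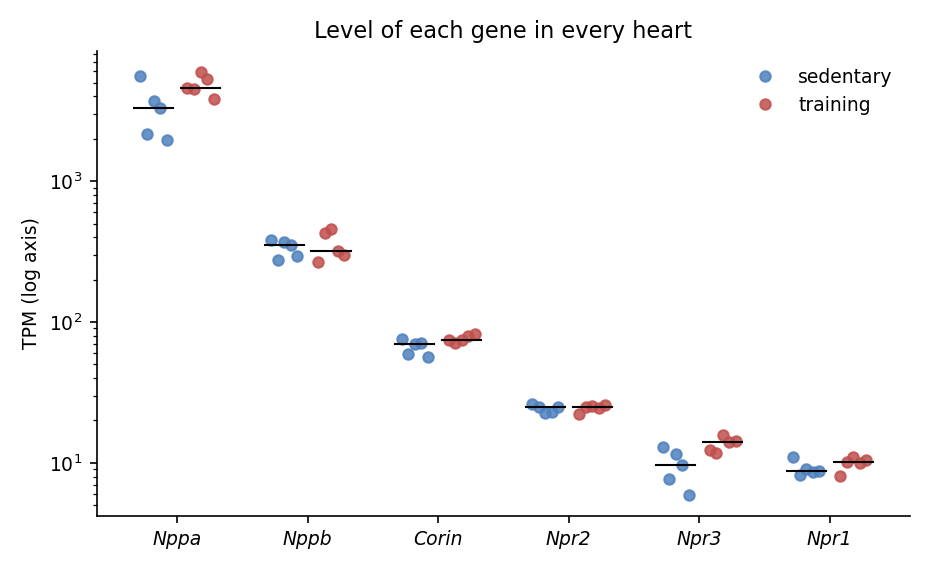
Level of the 6 genes in TPM (log axis) in each heart, blue for sedentary and red for training, with a black line at each group's median. Nppa lies between 1955 and 5962 TPM, and the ranges of Npr3 and Npr1 overlap at the bottom of the order.

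Training against sedentary hearts, none of the 6 genes passed the threshold, with Benjamini-Hochberg adjustment over all genes. In edgeR's quasi-likelihood test 0 of 6 passed, beside 7.01% of all tested genes. In DESeq2's Wald test 0 of 6 passed, beside 1473 of all 15454 tested genes. The groups overlapped in all 6. At an unadjusted p under 0.05 there were 2, Nppa and Npr3, in the edgeR test and 1, Npr3, in the DESeq2 test. Many other genes reached that level: by edgeR's p, Npr3 ranked 1562 and Nppa 3052 among the 15454 tested genes. Nppa and Npr3 had the highest fold changes of the 6. All 5 training hearts exceeded the mean of the sedentary group in both, and in Corin as well. The median log2 fold change of the 6 genes was 0.10, beside 0.0003 over all tested genes. In a whole-heart library, a change in the number of cells of a type and a change of RNA per cell cannot be told apart.

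Nppa gave 3547, 3265, 4200, 3881 and 2688 CPM in training hearts 1 to 5, and 4060, 1693, 2774, 2671 and 1573 CPM in sedentary hearts 1 to 5. Sedentary heart 1 was above 4 of the 5 training hearts, whereas sedentary hearts 2 and 5 were below every other heart, so the groups overlapped. The means were 3516 ± 581 CPM and 2554 ± 1004 CPM (SD, n = 5). The log2 fold change was 0.46 (SE, standard error, 0.21, 95% interval 0.0025 to 0.92, edgeR's quasi-likelihood test, adjusted p = 0.248). The coefficient of variation was 39.3% among the sedentary hearts and 16.5% among the training hearts, and the highest sedentary heart had 2.58 times the level of the lowest. Without sedentary heart 1 the log2 fold change was 0.69 and passed the threshold (edgeR, adjusted p = 0.0367).

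Nppb, the other peptide gene, gave 186, 283, 291, 212 and 192 CPM in the training hearts and 254, 198, 254, 260.4 and 215 CPM in the sedentary hearts. The training hearts lay on both sides of the sedentary range: hearts 2 and 3 above all sedentary hearts, hearts 1 and 5 below all of them. Its means were 233 ± 50.5 CPM and 236 ± 27.9 CPM, and its log2 fold change was −0.02 (SE 0.13, 95% interval −0.29 to 0.25, edgeR's quasi-likelihood test, adjusted p = 0.949). The fold change of Nppb took the other sign in 7 of 20 alternative fits, all of them within 0.051 of 0 on the log2 scale. Nppb and Nppa, which share a locus, were both highest in training heart 3. The lowest heart differed: sedentary heart 5 for Nppa and training heart 1 for Nppb.

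The receptor genes differed in how far their values spread. Npr3 (ENSMUSG00000022206), the clearance receptor on chromosome 15 (11839982 to 11907373, minus strand), gave 68.6, 57.5, 81.6, 70.2 and 73.0 CPM in training hearts 1 to 5. In the sedentary hearts it gave 67.6, 42.2, 61.5, 55.8 and 34.2 CPM. Training hearts 1, 3, 4 and 5 lay above every sedentary heart, and training heart 2 fell within the sedentary range. The means were 70.2 ± 8.67 CPM and 52.3 ± 13.8 CPM, which is a log2 fold change of 0.42 (SE 0.15, 95% interval 0.098 to 0.75, edgeR's quasi-likelihood test, adjusted p = 0.143). It passed without sedentary heart 1 (log2 fold change 0.54, edgeR, adjusted p = 0.0501) and with no filter on low counts (0.41, edgeR, adjusted p = 0.0533).

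Npr1 (ENSMUSG00000027931), the guanylyl cyclase receptor of both cardiac peptides, lies on chromosome 3 (90356458 to 90373748, minus strand). It gave 29.8, 33.4, 35.7, 35.9 and 35.0 CPM in the training hearts and 36.1, 28.9, 33.2, 31.3 and 30.5 CPM in the sedentary hearts. The lowest and the highest heart were both sedentary. Its log2 fold change was 0.08 (95% interval −0.057 to 0.23, edgeR's quasi-likelihood test, adjusted p = 0.519).

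Npr2 (ENSMUSG00000028469), the guanylyl cyclase receptor known for binding C-type natriuretic peptide, lies on chromosome 4 (43631339 to 43651436, plus strand). It varied least, between 67.8 and 73.7 CPM in the training hearts and between 68.2 and 76.0 CPM in the sedentary hearts. Its coefficient of variation was 4.13% and 4.27%. The log2 fold change was −0.05 (95% interval −0.14 to 0.043, edgeR's quasi-likelihood test, adjusted p = 0.575), and the fold of training over sedentary 0.967 (95% interval 0.907 to 1.03).

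Corin (ENSMUSG00000005220) lies on chromosome 5 (72457290 to 72661924, minus strand). It gave 350.1, 313, 321, 356 and 351 CPM in the training hearts and 336, 283, 317, 346 and 275 CPM in the sedentary hearts. Training hearts 1, 4 and 5 were above every sedentary heart, and sedentary hearts 2 and 5 were again the lowest of all. The means were 338 ± 19.7 CPM and 311 ± 31.3 CPM, with a log2 fold change of 0.12 (SE 0.066, 95% interval −0.022 to 0.26, edgeR's quasi-likelihood test, adjusted p = 0.334).

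**Figure D2:**
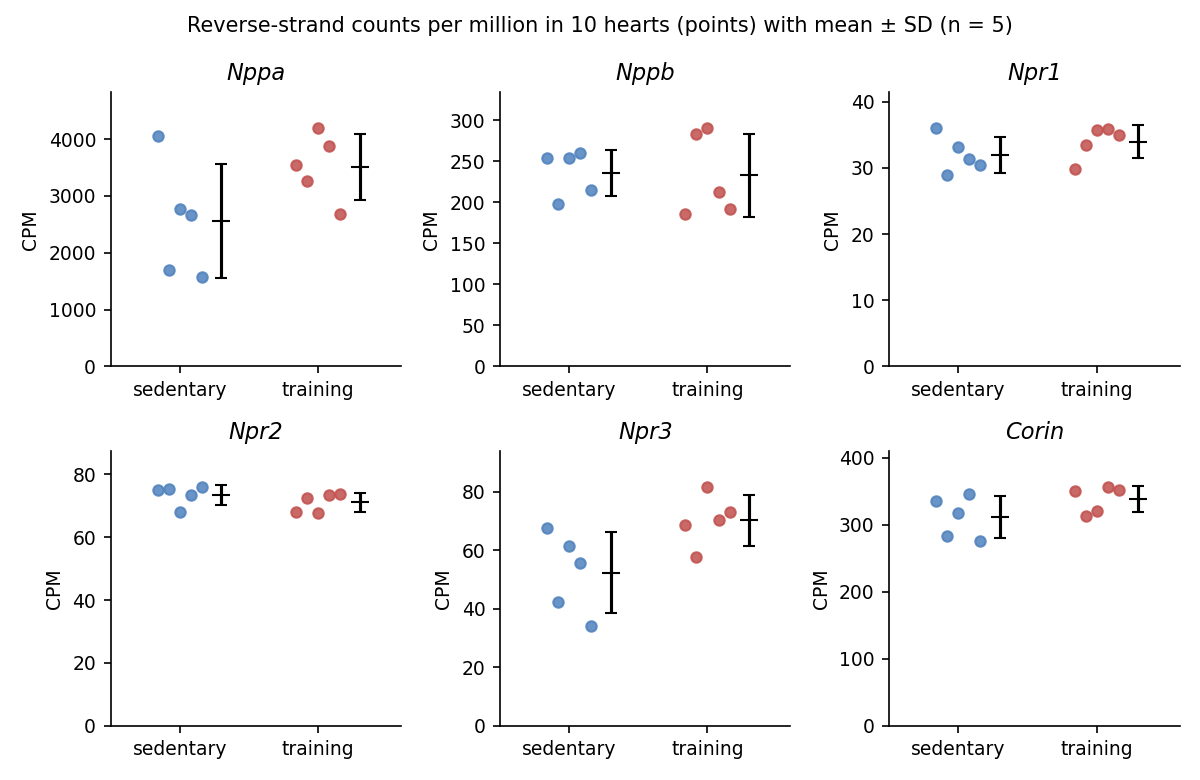
CPM of each gene from reverse-strand counts in 5 sedentary (blue) and 5 training (red) hearts, 1 point a heart, with mean ± SD beside the points and the axis starting at 0. The groups overlap in all 6 panels, most narrowly for Npr3.

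Ratios between genes of the same heart do not depend on library size, and 4 were compared from counts per length by exact permutation (two-sided), whose smallest possible p is 0.00794, at an adjusted threshold of 0.05. The ratio of Nppa to Nppb was 17.0, 10.3, 12.9, 16.3 and 12.5 in the training hearts and 14.2, 7.62, 9.74, 9.13 and 6.51 in the sedentary hearts. On the log2 scale the group means differed by 0.57 (exact permutation p = 0.0556, adjusted p = 0.111 over 4 ratios). Sedentary heart 1 lay within the training range here as well, and without it the difference was 0.73 (exact permutation test, adjusted p = 0.0317).

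The ratio of Npr1 to Npr3, signalling receptor to clearance receptor, was 0.686, 0.876, 0.720, 0.753 and 0.755 in the training hearts and 0.904, 1.11, 0.816, 0.944 and 1.54 in the sedentary hearts. It was below every sedentary heart in training hearts 1, 3, 4 and 5. The log2 means differed by −0.45 (exact permutation p = 0.0159, adjusted p = 0.0635). Leaving out sedentary heart 1 (difference −0.50) or sedentary heart 3 (difference −0.54) gave an adjusted p of 0.0317 in the same exact permutation test, whereas it was 0.167 without training heart 1, 0.159 without training heart 4 and 0.143 without training heart 3. The ratios of Npr1 to Npr2 (log2 difference 0.09, exact permutation test, adjusted p = 0.278) and of Corin to Nppa (−0.41, adjusted p = 0.159) did not pass. Corin to Nppa also passed without sedentary heart 1 (−0.57, exact permutation test, adjusted p = 0.0423).

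The level of atrial markers differed between the hearts and moved with several of the 6 genes. Of 10 atrial markers other than Nppa, 4 were higher in the training hearts and 1 was lower at an FDR below 0.1, against 2.75% and 4.26% of all tested genes, with a median log2 fold change of 0.45. Sln, the atrial regulator sarcolipin, rose with a log2 fold change of 0.75 (edgeR, adjusted p = 0.0316), as did Dkk3 with 0.73 (adjusted p = 0.0278), Stard10 with 0.48 (adjusted p = 0.0613) and Kcnj3, a subunit of an atrial potassium channel, with 0.36 (adjusted p = 0.0379). Kcna5, another potassium channel gene of atrial muscle, fell by 0.81 (edgeR, adjusted p = 0.0432). It gave 15.8, 34.7, 29.6, 34.9 and 31.8 CPM in sedentary hearts 1 to 5. It was thus lowest in sedentary heart 1, where the summed level of the 10 markers was the highest of that group. Kcna5 is nevertheless part of the sum and the score below. Bmp10 (0.83), Myl7 (0.50), Mybphl (0.42), Myl4 (0.37) and Nr2f1 (0.20) did not pass. The summed level of the 10 markers was 2534 to 3965 CPM in the training hearts and 1386 to 3224 CPM in the sedentary hearts, and sedentary hearts 2 and 5 were the lowest, at 1386 and 1567 CPM. The list and the score from it, the mean log2 deviation of its genes, were chosen with earlier results of these data known.

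Over the 10 hearts, Nppa, Npr3 and Corin went with the atrial score and with each other. Of 21 relations computed, 6 passed an adjusted p of 0.05 (Pearson's r on log2 CPM with 100000 permutations). Nppa and the score had r = 0.91 (permutation p = 0.0010, adjusted p = 0.00791) and Spearman's rho = 0.85 (permutation p = 0.00283, adjusted p = 0.0297). Npr3 and the score had r = 0.92 (permutation p = 0.00052, adjusted p = 0.00791) and rho = 0.87 (permutation p = 0.0021, adjusted p = 0.0297). Corin and the score had r = 0.83 (permutation p = 0.00439, adjusted p = 0.023) and rho = 0.73 (permutation p = 0.0194, adjusted p = 0.0939).

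These relations rested in part on sedentary hearts 2 and 5. Without the 2 hearts farthest from the median of the score, r was 0.67 for Nppa (permutation p = 0.0688), 0.86 for Npr3 (permutation p = 0.00737) and 0.40 for Corin (permutation p = 0.321), before adjustment. Among the genes themselves, r was 0.90 for Nppa with Npr3 (permutation test, adjusted p = 0.00791; rho = 0.77, adjusted p = 0.0829), 0.82 for Npr3 with Corin (adjusted p = 0.0258; rho = 0.71, adjusted p = 0.0939) and 0.75 for Nppa with Corin (adjusted p = 0.0492; rho = 0.45, adjusted p = 0.312). Without the 2 farthest hearts these fell to 0.58, 0.19 and −0.05, none with an unadjusted permutation p under 0.05. With the group means removed, 0 of the 21 passed, although r of Nppa and of Npr3 with the score was still 0.86 and 0.87 (permutation test within groups, adjusted p = 0.096 each).

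Nppb, Npr1 and Npr2 had no relation with the atrial score that passed over the 10 hearts. Npr1 came nearest, with r = 0.71 (permutation p = 0.0222, adjusted p = 0.0517) and rho = 0.64 (permutation p = 0.0551), and it had the same adjusted p for r with Nppa (0.72) and with Npr3 (0.71). Nppb had r = 0.26 with it (permutation p = 0.466) and r = 0.39 with Nppa (permutation p = 0.267, adjusted p = 0.374; rho = 0.32), and Npr2 had r = −0.51 with the score (permutation p = 0.131). Within the 5 sedentary hearts r with the score was 0.95 for Nppb and 0.85 for Npr1, and within the 5 training hearts −0.04 and 0.29, given as a description of small groups. In the same way r of Nppa with Nppb was 0.84 and 0.44. With the atrial score as a covariate in the edgeR fit, the log2 fold change was −0.001 for Nppa (95% interval −0.31 to 0.30), 0.06 for Npr3 (−0.16 to 0.29), −0.01 for Corin (−0.14 to 0.13), −0.02 for Npr1, −0.02 for Npr2 and −0.15 for Nppb (−0.47 to 0.17). In that fit 89 of all genes passed in place of 1084, and the part of atrial tissue in the differences was not tested.

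**Figure D3:**
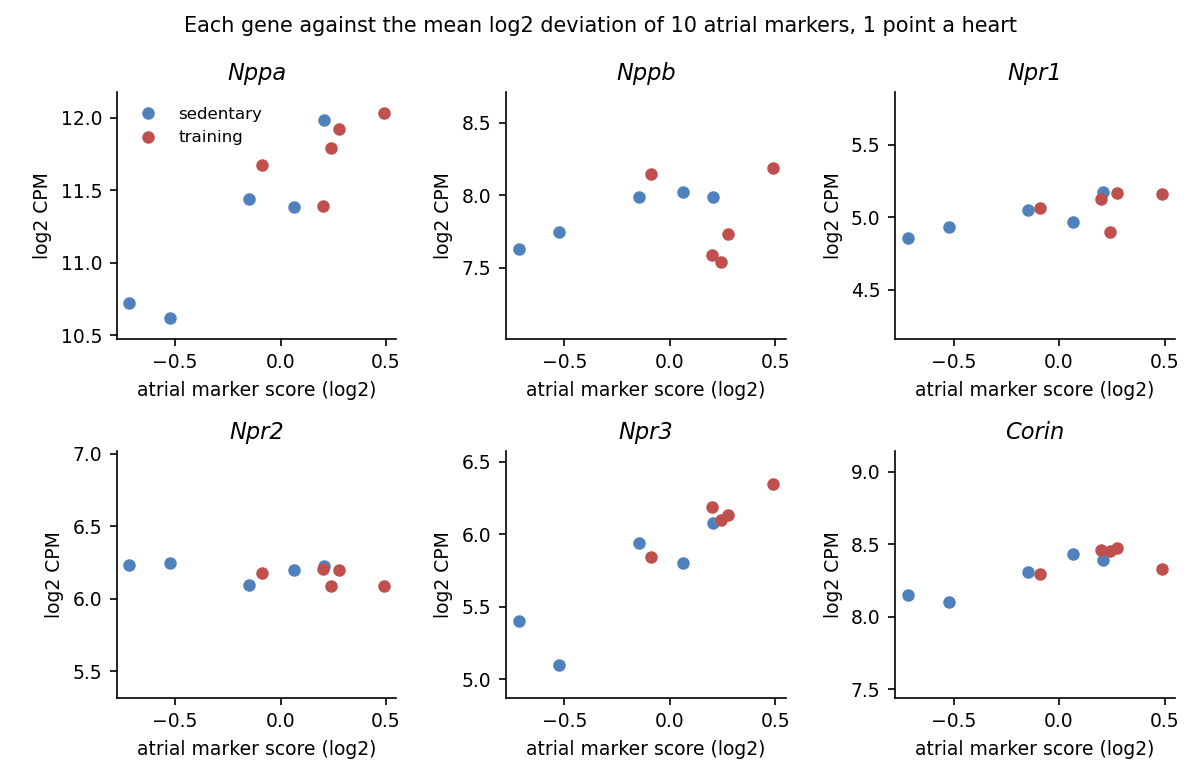
Log2 CPM of each gene against the atrial marker score (mean log2 deviation of 10 atrial markers without Nppa), 1 point a heart, with the same span on every vertical axis. Nppa and Npr3 are lowest in the 2 sedentary hearts with the lowest scores, and Npr2 is flat.

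**Figure D4:**
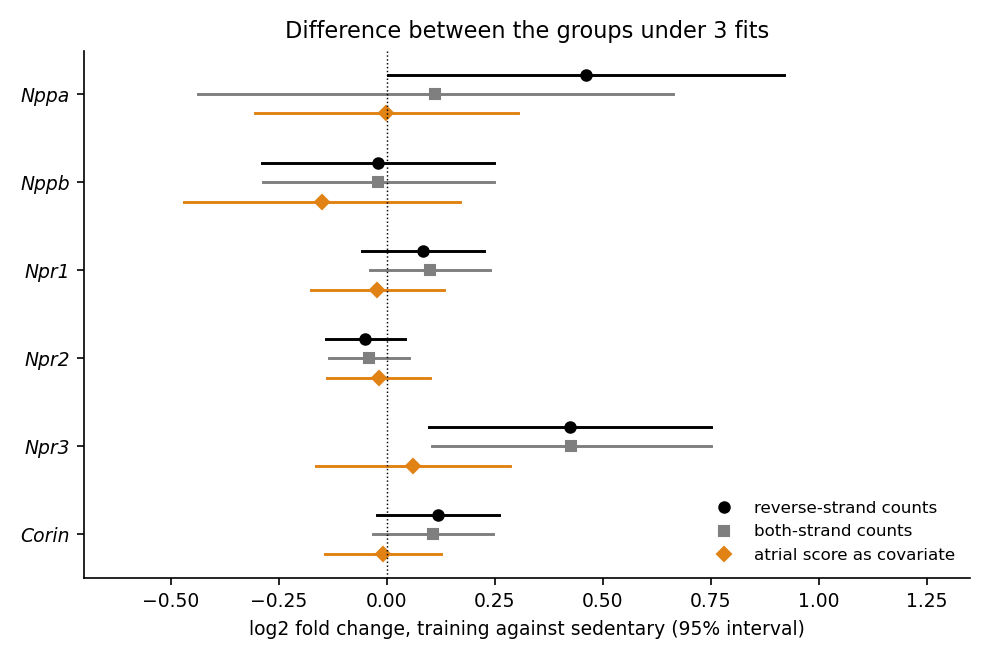
Log2 fold change, training over sedentary, with its 95% interval for the 6 genes, from reverse-strand counts (black circles), counts of both strands (grey squares) and reverse-strand counts with the atrial score as a covariate (orange diamonds). Nppa moves from 0.46 to 0.11 and to −0.001, and Npr3 keeps 0.42 and 0.43 on the first 2 and comes to 0.06 with the covariate.

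Markers of other cell types were examined for calls and levels alone. Unlike the atrial score, they were not correlated with the 6 genes or used as a covariate. Their counts stand against the same 2.75% higher and 4.26% lower among all tested genes. Of 5 endocardial markers, 2 were higher (Cytl1 and Smoc1, log2 fold changes 0.46 and 0.48). Their summed level was 151 to 186 CPM in the training and 132 to 152 CPM in the sedentary hearts. The endocardial score, built like the atrial score, was 0.013 to 0.29 in the training and −0.31 to −0.016 in the sedentary hearts, without overlap. The score of 6 cardiomyocyte markers did not overlap either, at −0.099 to −0.054 in the training and −0.014 to 0.12 in the sedentary hearts. Among 7 fibroblast markers, 1 was higher (Pdgfra, 0.24), and the summed level was 1391 to 1732 against 1223 to 1528 CPM. Of 8 mural cell markers, 1 was higher and 1 lower; of 6 endothelial markers and of 6 cardiomyocyte markers, 1 each was lower. None of 5 ventricular, 5 epicardial, 5 tested adipocyte and 6 macrophage markers passed (edgeR, with 1 ventricular marker and none of the others at an unadjusted p under 0.05). The summed adipocyte level ran from 8.85 to 70.3 CPM in the training and from 6.68 to 47.2 CPM in the sedentary hearts. Of 14 clock genes, 5 were higher and 3 lower. The part of these differences in the levels of the peptide system was not tested.

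The count of Nppa depended on how strand was treated, because a gene on the opposite strand covers much of it. The long noncoding RNA gene Gm13054 (ENSMUSG00000086806, chromosome 4, 148085548 to 148088471, minus strand) has exons over 615 of the 1019 exonic bases of Nppa (60.4%), in its downstream exons. A count without strand leaves out every read that falls on exons of both genes. The both-strand column kept 16.5%, 14.2%, 16.9%, 13.5% and 9.63% of the Nppa reads in training hearts 1 to 5, and 17.1%, 17.9%, 19.4%, 19.7% and 18.7% in sedentary hearts 1 to 5. All training hearts lay below all sedentary hearts, and training heart 5 was the lowest. The log2 fold change of Nppa was accordingly 0.46 from reverse-strand counts and 0.11 from counts of both strands (95% interval −0.44 to 0.66, edgeR, adjusted p = 0.86).

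The bases of Nppa outside the antisense exons lie mostly in its first exon, and the share of reads there was 14.2 ± 2.92% in the training and 18.5 ± 1.08% in the sedentary hearts (SD, n = 5). The difference was −4.37 percentage points and is given with no test, because it was examined after the counts of both strands had been seen. Among 1298 genes with a partial antisense overlap and at least 200 reads in each library, 57 (4.39%) had no overlap between the groups, and Nppa ranked 3 by the size of the difference on the log2 scale (−0.41). Leaving out each heart in turn gave differences from −5.05 to −3.24 points.

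**Figure D5:**
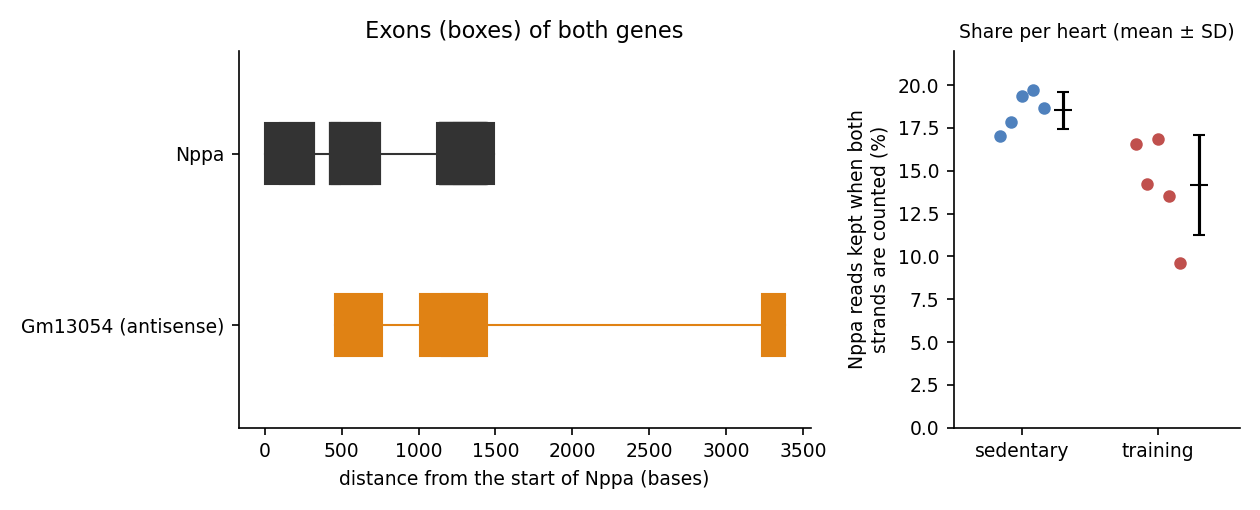
Left, exons (boxes) of Nppa and of the antisense gene Gm13054 by distance from the GENCODE start of Nppa in bases. Right, the percentage of Nppa reads kept when both strands are counted, 1 point a heart with mean ± SD; the training hearts (red, 9.63% to 16.9%) lie below the sedentary hearts (blue, 17.1% to 19.7%).

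Gm13054 itself had few reads on its own strand. It gave 484, 36, 236, 34 and 55 reads in training hearts 1 to 5 and 63, 25, 263, 23 and 8 reads in sedentary hearts 1 to 5, which is at most 0.386% of the Nppa count of the same heart. Training hearts 1 and 3 and sedentary heart 3 were the highest. Forward-strand reads on Nppb and Corin, which Gm13054 does not overlap, were highest in the same 3 hearts as a share of their reverse-strand reads, at up to 0.761% and 0.566%. Whether the Gm13054 reads are its own or strand errors of Nppa was not tested. Antisense genes cost the other members less: the both-strand count kept 78.3% or more of Npr1 reads (Gm16048), 92.5% to 94.7% of Corin reads, 94.9% to 96.5% of Npr2 reads and 99.6% or more of Nppb and Npr3 reads.

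The surroundings of the peptide locus were examined as well. Tested genes within 100 kb of Nppa or Nppb numbered 7, among them Mfn2, Clcn6, Agtrap, 2510039O18Rik and Gm13054. Of these 7, 1 passed, against 7.01% of all tested genes. Plod1, a lysyl hydroxylase of collagen, had 101 ± 6.34 CPM after training and 115 ± 5.08 CPM in sedentary hearts; its log2 fold change was −0.18 (edgeR, adjusted p = 0.0572). Agtrap had a log2 fold change of −0.10 that did not pass.

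The genes that supply and remove natriuretic peptides were listed next, and 10 of 15 had enough reads to be tested. Dpp4, a peptidase that can trim the amino end of brain natriuretic peptide, was higher and Furin, a proprotein convertase known to cut the Nppb precursor, was lower, against 2.75% and 4.26% of all tested genes. Furin gave 112, 123, 132, 121 and 129 CPM in the training hearts and 153, 134, 140.5, 144 and 137 CPM in the sedentary hearts, without overlap. Its log2 fold change was −0.20 (SE 0.051, edgeR's quasi-likelihood test, adjusted p = 0.0482). Dpp4 gave 10.8, 8.85, 12.0, 8.65 and 9.42 CPM in the training hearts and 8.37, 7.71, 7.16, 8.25 and 6.71 CPM in the sedentary hearts, again without overlap. It had a log2 fold change of 0.38 (SE 0.099, edgeR, adjusted p = 0.0508).

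The median log2 fold change of the list was 0.02. Mme, which encodes neprilysin, the main enzyme of natriuretic peptide breakdown, had a log2 fold change of 0.02 (95% interval −0.16 to 0.20), and Pcsk6, the convertase that activates Corin, 0.05 (−0.078 to 0.18). Pam, an enzyme of atrial secretory granules, was at 2298 ± 287 CPM and 1889 ± 440 CPM, a log2 fold change of 0.28 (edgeR, adjusted p = 0.25). Nppc, the gene of C-type natriuretic peptide, had at most 8 reads in any library, Ostn at most 4, and Chga, Scg2 and Scg5 at most 8, so no difference was detectable at this depth. The 2 calls of this list fell to 1 without training heart 3 or 4 or sedentary heart 5 and to 0 without sedentary heart 3. They rose to 3 without training heart 2 or sedentary heart 1.

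Downstream of the receptors, 2 of 20 tested genes that make, sense or break down cyclic nucleotides were higher and 0 lower in the training hearts, against 2.75% and 4.26% of all tested genes, with a median log2 fold change of 0.05. Both encode phosphodiesterases. Pde1c, a calcium and calmodulin-dependent enzyme, gave 82.0, 79.9, 70.7, 79.6 and 74.9 CPM in the training hearts and 61.0, 67.0, 61.1, 73.0 and 65.7 CPM in the sedentary hearts. Sedentary heart 4 lay above training heart 3, and the log2 fold change was 0.24 (SE 0.057, edgeR, adjusted p = 0.0379). Pde3b, a phosphodiesterase inhibited by cyclic GMP, gave 12.1, 11.6, 15.7, 16.6 and 13.5 CPM against 12.3, 9.46, 9.58, 11.2 and 9.92 CPM, with a log2 fold change of 0.40 (SE 0.11, edgeR, adjusted p = 0.0551).

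Pde5a and Pde9a, the cyclic GMP phosphodiesterases, had log2 fold changes of 0.09 (95% interval −0.13 to 0.32) and 0.14 (−0.17 to 0.45), and Prkg1, cyclic GMP-dependent kinase, −0.08 (−0.21 to 0.052). Pln, a substrate of that kinase, was at 5228 ± 386 CPM and 5231 ± 312 CPM. Irag1, another of its substrates, had a log2 fold change of 0.39 that did not pass (edgeR, adjusted p = 0.118). The number called was 1 without training heart 3 or 4 or without sedentary heart 2, 3 or 5, and 4 without training heart 2 or sedentary heart 1.

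Pde2a, a phosphodiesterase stimulated by cyclic GMP, was not tested, with 3 to 18 reads per heart in the STAR counts. The authors' RSEM expected counts for the same gene were 1715 to 2884 per heart. In them Pde2a was at 17.7 ± 0.954 TPM in the training and 20.4 ± 0.804 TPM in the sedentary hearts, and it was lower in training with a log2 fold change of −0.29 (SE 0.059, edgeR on rounded expected counts, adjusted p = 0.0281). It was singled out after its values were seen. No other gene of the 4 pathway lists that the filter removed had more than 12 RSEM counts in any heart.

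Of 25 tested transcription factors known from work on the Nppa and Nppb promoters, 0 were higher and 2 lower, against 2.75% and 4.26% of all tested genes. Hand2, a basic helix-loop-helix factor of heart development, gave 45.5, 48.0, 43.7, 43.2 and 41.0 CPM in the training hearts and 48.1, 56.7, 51.7, 52.4 and 52.4 CPM in the sedentary hearts. The groups did not overlap, and the log2 fold change was −0.24 (SE 0.052, edgeR, adjusted p = 0.0292). Mrtfb, a coactivator of SRF, was at 47.1 ± 1.05 CPM and 52.7 ± 3.73 CPM (log2 fold change −0.16, edgeR, adjusted p = 0.0788).

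None of the listed factors of the families whose motifs were searched in the promoters above passed the threshold. Members of these families outside the list were not examined here. Gata4 had 110.0 ± 5.85 CPM after training and 108 ± 6.13 CPM in sedentary hearts (log2 fold change 0.03), and Gata6 had a log2 fold change of 0.11 (edgeR, adjusted p = 0.172). Nkx2-5 was at 57.6 ± 3.01 and 60.8 ± 1.69 CPM (−0.08), Tbx5 had 0.23 (edgeR, adjusted p = 0.271), Tead1 −0.09 and Srf −0.13 (edgeR, adjusted p = 0.21). The median of the list was −0.01, and 1 factor passed without each of training hearts 1, 3, 4 and 5 and sedentary hearts 3 and 5. Without sedentary heart 1, 3 factors passed.

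The other genes of load and of the fetal program moved in both directions. Among 14, all of them tested, 3 were higher and 4 lower, against 2.75% and 4.26% of all tested genes, with a median log2 fold change of −0.06. Myh7, the slow myosin heavy chain of fetal ventricle, gave 195, 383, 228, 228 and 227 CPM in the training hearts and 74.7, 110.5, 95.8, 136 and 131 CPM in the sedentary hearts. All training hearts were above all sedentary hearts, and the log2 fold change was 1.20 (SE 0.18, edgeR, adjusted p = 0.00871). Ccn2, a matricellular gene (log2 fold change 0.66, adjusted p = 0.0116), and Tnni1, the slow skeletal troponin I of fetal heart (0.87, adjusted p = 0.0307), rose as well.

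Acta1, the skeletal actin of fetal heart and a classic partner of Nppa and Nppb under load, fell by 0.84 on the log2 scale (edgeR, adjusted p = 0.0935). Nmrk2, a nicotinamide riboside kinase, fell by 1.11 (adjusted p = 0.0169), and Actc1, cardiac actin, fell by 0.38 (adjusted p = 0.022). Ankrd1, a stretch-sensitive gene, had a log2 fold change of 0.30 that did not pass (edgeR, adjusted p = 0.26), and Atp2a2, the calcium pump of the sarcoplasmic reticulum, −0.02. Nppa and Nppb, with 0.46 and −0.02, therefore stood among load genes that were higher, lower and without a call.

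For each of the 6 genes, the 3 genes with the most similar pattern over the 10 hearts were found among 13116 genes whose mean level reached 1 CPM, by Pearson's r on log2 CPM, as a description. For Nppa they were Actn3 (r = 0.98), Myl4 (0.97), the atrial light chain, and AI661453 (0.97). For Npr3 they were Cd207 (0.97), Lsr (0.96) and Rnf141 (0.96), and for Corin Ica1 (0.95), Matr3 (0.94) and Tppp (0.92). Nppb was most like Etv6 (0.94), Fstl3 (0.93) and Myrf (0.92), none of which passed between the groups. Npr1 was most like Mapk10 (0.94), Lgi4 (0.94) and Zeb2 (0.92), and Npr2 was most like Rph3al (0.92) and, at the third place, Ulk1 (0.90). Of these 18 genes, 1 passed the threshold between the groups, against 7.01% of all tested genes. It was Rnf141, with a log2 fold change of 0.16 (edgeR, adjusted p = 0.0954).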

How the data were processed

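RNA from 10 whole mouse hearts (5 training, 5 sedentary, grouped by the labels) was sequenced as directional single reads, all hearts pooled. With STAR 2.7.10a on GRCm39 the authors counted uniquely mapped reads on each gene, and they deposited these raw counts for each strand and for both. The authors also deposited expected counts, effective lengths and TPM from RSEM 1.3.3, which shares reads among genes and transcripts. The strand setting of RSEM is not given in the sources used here. The reverse-strand counts were used, which are the strand of the kit, and multimapping reads (17.9% to 19.2%) and reads on no gene (4.15% to 4.89%) were left out.

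Symbols and positions came from GENCODE M39, which matched 56017 of 56748 identifiers, and promoters from RefSeq (GRCm38.p6), placed on GRCm39 by exact match. Groups were compared by the quasi-likelihood F test of edgeR 4.0.16 (R 4.3.3) after filterByExpr and TMM, with Benjamini-Hochberg adjustment over all 15454 tested genes and calls at an FDR below 0.1, as in the study. CPM use the TMM-corrected library size, and log2 CPM a prior count of 2. Expected counts were rounded for the fit on them. Ratios used counts per effective length and exact permutation tests, and correlations 100000 permutations (numpy 2.4.6, scipy 1.17.1).

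Simulated data with known fold changes were used to test the fits. Genes were named if they are 1 of the 6 members, a gene of a pathway list called at that FDR, 1 of the 3 most similar genes of each member, or tested and within 100 kb of Nppa or Nppb. Some genes that this rule names are not reported here. The 6 members, the 4 pathway lists and the marker lists were chosen with earlier results of these data known. Alternatives were DESeq2 1.42.0, other size factors and filters, expected counts, counts of both strands, no mitochondrial DNA genes, the mouse number as a block, the atrial score as a covariate, an FDR below 0.05 and each heart left out.

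The total of reads on genes, between 29461697 and 39431030 per heart, limits the counting precision, which is coarsest for genes with few reads. Within a group, no pair of libraries matched within counting noise (chi-square per degree of freedom at least 6.02), and each library counted as 1 replicate because the labels number the mice.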

Additional observations from a re-analysis of the deposited data

Results flagged for a closer look

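In 98 groups of 5 hearts, covering the 6 genes, their ratios and the other named genes, 1 heart stood apart from the remaining 4 by Dixon's criterion in 5 groups, and chance alone marks about 5% of groups. None of the 5 was a value of a natriuretic peptide gene or of a receptor gene. Gm13054, the antisense gene over Nppa, was at 7.00 CPM in sedentary heart 3 and between 0.219 and 1.56 CPM in the other sedentary hearts. Myh7 was at 383 CPM in training heart 2 and between 195 and 228 CPM in the other training hearts. Actc1 was at 9516 CPM in the same training heart 2 and between 7402 and 7777 CPM in the rest of its group. Mrtfb was at 59.3 CPM in sedentary heart 4, with the other sedentary hearts between 49.9 and 52.1 CPM. Rph3al was at 5.38 CPM in sedentary heart 3, below the 6.86 to 7.20 CPM of the other sedentary hearts.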

How the results depend on the processing

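The count of called genes among the 6 was 0 in 18 of 21 alternatives, 1 with no filter on low counts (Npr3, log2 fold change 0.41), 2 with the mouse number as a replicate block, and 0 to 2 with 1 heart left out. The mouse numbers of the labels did not pair the hearts (correlation of deviations −0.097 to 0.16); the replicate block gave 0.53 for Nppa (edgeR, adjusted p = 0.057) and 0.45 for Npr3 (edgeR, adjusted p = 0.0618) and called 1137 genes in all in place of 1084. Npr3 kept its direction in 20 of 20 alternatives. With library totals alone, Nppb came to 0.03 and Npr2 to 0.0045; with the atrial score as a covariate, Nppa came to −0.00053, Npr1 to −0.022 and Corin to −0.0090. The cause was not tested. Leaving out 1 heart gave 0.33 to 0.69 for Nppa, −0.11 to 0.051 for Nppb, 0.050 to 0.13 for Npr1, −0.070 to −0.032 for Npr2, 0.30 to 0.54 for Npr3 and 0.078 to 0.16 for Corin. It gave log2 differences of 0.45 to 0.73 for the ratio of Nppa to Nppb, −0.54 to −0.31 for Npr1 to Npr3, 0.034 to 0.13 for Npr1 to Npr2 and −0.57 to −0.30 for Corin to Nppa. Counts of both strands brought Nppa to Nppb to 0.16 and Corin to Nppa to −0.004. Of the 21 relations across hearts, 6 passed, 0 with each group centred, and 9 with Nppa and Nppb left out of the library size. Without the 2 hearts farthest from the median of the first quantity of each pair, 1 passed, and none of the 6 did. It was Npr1 with Npr3 (r = 0.87, permutation p = 0.00143 before adjustment), whose adjusted permutation p over all hearts was 0.0517. The hearts left out differed between pairs. At an FDR below 0.05, 1 gene each of the supply, cyclic GMP and transcription factor lists remained called.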

Other observations

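The share of reads outside antisense exons was also measured over the other genes with a partial antisense overlap. In 372 of these genes the antisense exons lie at the 3′ end, as for Nppa. Their median log2 deviation of the share was −0.0038 ± 0.0036 after training and 0.0044 ± 0.0037 in sedentary hearts (SD, n = 5). Over 314 genes whose antisense exons lie at the 5′ end it was 0.0082 ± 0.0072 and −0.0065 ± 0.0027. As for Nppa, no test is given, because these sets were examined after the counts of both strands had been seen. Training heart 5, which had the lowest Nppa share, had the lowest value of the first set (−0.0083) and the highest of the second (0.017). On the log2 scale the groups differed by −0.0082 in the first set and by −0.41 in the Nppa share. Dividing the Nppa share of each heart by the median of the first set gave a difference of −4.28 points, beside −4.37 points without. The genes are not independent replicates, and the cause of the shift was not tested.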
